A study of Homo sapiens with 12 samples.

Results

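Cholesterol and fatty acids are made from acetyl-CoA, and the enzymes of both routes are transcribed under the sterol regulatory element binding proteins (SREBPs). SREBP precursors sit in the endoplasmic reticulum bound to the escort SCAP, which the sterol-sensing INSIG proteins hold there. When sterols are low, SCAP carries the precursor to the Golgi, where it is cleaved and the released factor enters the nucleus. The kinase complex mTORC1, which rapamycin inhibits in part, is known to raise SREBP activity and also to favour translation of mRNAs that begin with a terminal oligopyrimidine (TOP) tract, a C followed by a run of pyrimidines. In pancreatic ductal adenocarcinoma, lipid synthesis supplies membranes to growing cells.

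The 33 genes described here were chosen by name as the SREBP control genes and the enzymes of sterol and fatty acid synthesis, out of 20212 protein-coding genes in the count table. They fall into 8 roles: SREBP control (SREBF1, SREBF2, SCAP, INSIG1, INSIG2), early mevalonate steps (ACAT2, HMGCS1, MVK, PMVK, MVD, IDI1, FDPS), squalene and sterol steps (FDFT1, SQLE, LSS, CYP51A1, TM7SF2, MSMO1, NSDHL, HSD17B7, EBP, SC5D, DHCR7), sterol transport (STARD4), acetyl-CoA supply (ACLY, ACSS2), fatty acid synthesis (ACACA, FASN), elongation and desaturation (SCD, ELOVL6, FADS1, FADS2) and phosphatidate phosphatase (LPIN1). Ribosome footprints (RF, the mRNA fragments that ribosomes protect from nuclease) and total RNA were sequenced from PANC-1, a human pancreatic cancer cell line, after DMSO or after 50 nM rapamycin for 60 min. Cells of both treatments grew in serum-containing medium, a source of outside cholesterol. Each treatment had 3 cultures, numbered 1 to 3 in the labels, and each culture gave 1 RF and 1 total RNA library, which makes 12 libraries of 1 cell line. The sources used here do not say whether the cultures were grown independently, so the spread between these cultures may be technical. P-values of RF alone or of RNA alone measure that spread. Translation efficiency (TE) is RF relative to total RNA of the same gene. Its main test, and that of RF over RNA in DMSO, fitted RF and RNA libraries jointly. That fit gives each gene 1 dispersion for both library types and has no term for culture. Its p-values therefore do not measure the spread of TE between cultures.

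The RF libraries were shallow, with 278835 to 1574723 counts, against 78081241 to 94293744 counts in the total RNA libraries. Between-library variation beyond counting error was 54.9% in RF and 5.31% in RNA (biological coefficient of variation). The joint fit that tests TE took 24.4% for both library types, less than that of RF alone. DMSO culture 2 had 9 of the 33 genes at 0 RF counts, and the other RF libraries had 1 to 5. No RNA library had any of them at 0. DMSO RNA libraries 1 and 2 detected 16840 and 16858 genes, fewer than the 19751 to 19847 of the other RNA libraries. KRT8, KRT18 and KRT19, keratins of ductal epithelium, and VIM, a mesenchymal filament, had mean FPKM (fragments scaled for gene length and library depth) from 1370 to 2490 in DMSO, whereas the duct channel gene CFTR was at 0.0153 and the acinar gene PRSS1 at 0.0152. The immune gene PTPRC was at 0.0758.

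SREBF2, which encodes the SREBP that acts mainly on sterol genes, was the only one of 30 searched genes whose leading isoform began with a TOP tract (C and at least 4 pyrimidines) in the annotated transcript. Across all 13058 genes searched, 526 (4.03%) began this way. The first 20 bases of the leading isoforms of both SREBP genes are shown for contrast, with capitals marking the pyrimidine run.
SREBF2-201: CTTTCTgtgcggcgcccggg
SREBF1-201: agtttccgaggaacttttcg
An annotated transcript end need not be the start used in these cells, and starts were not measured.

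Promoters were read from RefSeq (GRCh38.p14, 250 bases before to 50 after the start), which held 29 of the 33 genes. FASN, FDFT1, SQLE and ACAT2 were not matched. The sterol regulatory element core TCACCCCAC, searched on both strands, occurred in the SREBF2 promoter alone among these 29, and in 0.535% of all genes with a promoter (0.43% of all promoters, since a gene can have several). Only this exact string was searched, where a longer form of it had been planned. Elements with other letters or outside the window were not counted, so a gene without a match may still have one. CCAAT, the letters bound by NF-Y, a known partner of SREBPs, occurred on either strand in 21 of the 29 (72.4%) and in 39.7% of all genes (34.6% of promoters). CACGTG, an E-box read by MYC, MAX and USF among other factors and a special case of CANNTG, was present in INSIG1, LSS, SC5D and SCAP (13.8% of the 29), against 8.77% of all genes (7.26% of promoters). CANNTG itself was in 20 of the 29 (69.0%) and in 73.1% of all genes (68.7% of promoters). These matches describe letters only. The windows shown are those of SREBF2 and of genes whose RNA or TE values are described in detail, each 30 bases on the gene's strand with the motif in capitals (ATTGG is CCAAT on the opposite strand).
SREBF2 chr22:41832961-41832990 (+): atgacgcgccaTCACCCCACgcaccgcttc
SREBF2 chr22:41832986-41833015 (+): gcttcgctcgcccATTGGctgagatgagcc
SCD chr10:100347034-100347063 (+): aaattcccttcggCCAATgacgagccggag
HMGCS1 chr5:43313496-43313525 (-): tctaccggccgcgATTGGctgtgggagcca
MVK chr12:109573735-109573764 (+): ctcgcgcgctctgATTGGctggcctgaagt
INSIG1 chr7:155297811-155297840 (+): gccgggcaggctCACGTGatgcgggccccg

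Total RNA of the pathway spanned a wide range in untreated cells. FDPS, which makes farnesyl diphosphate, was highest at 76.9 ± 0.833 FPKM in DMSO (SD, n = 3), followed by the sterol isomerase EBP (47.8 ± 3.78) and ACLY, which splits citrate to acetyl-CoA (42.5 ± 0.66). The EBP and ACLY libraries did not overlap. The lanosterol demethylase CYP51A1 (38.6 ± 1.24), the fatty acid synthase FASN (28.8 ± 1.05) and SREBF1 (25.9 ± 0.664) came next. SREBF1, whose SREBP forms act on fatty acid and sterol genes, was thus above SREBF2 (5.38 ± 0.226) per length in every DMSO library. Gene FPKM covers all isoforms, and the leading isoforms were closer, with DMSO means of 4.66 for SREBF1-201 and 3.24 for SREBF2-201. At the low end stood ELOVL6, an elongase (0.543 ± 0.472), and STARD4, a cytosolic sterol carrier (1.95 ± 0.131), with INSIG2 (3.43 ± 0.344), the sterol reductase HSD17B7 (4.91 ± 0.419) and SREBF2 above them. The libraries of HSD17B7 and SREBF2 overlapped.

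**Figure D1:**
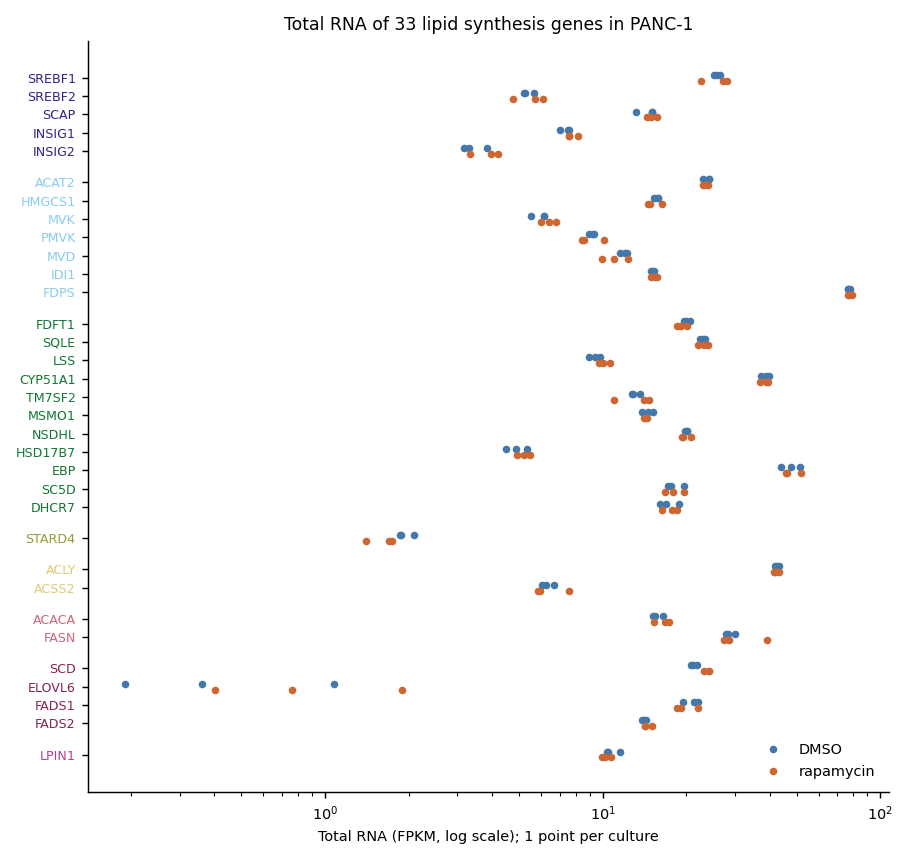
Total RNA in FPKM (horizontal log axis) for the 33 genes grouped by role, with 1 point per culture in blue for DMSO and orange for rapamycin. FDPS has the highest level (mean 76.9 in DMSO) and ELOVL6 the lowest (0.543), and for most genes the points of the treatments overlap.

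For CYP51A1 the count and the FPKM tables rank the gene differently. It had the fourth highest FPKM but only 6.64 ± 0.38 RNA CPM (counts scaled to library depth by TMM) in DMSO. In the annotation used here, 74.1% of its 4171 exon bases are also covered by other annotated genes. Whether this overlap accounts for the different ranks was not tested. All overlaps given here come from an annotation newer than the one used in counting, so the overlap met in counting may differ. HMGCS1, the synthase that makes HMG-CoA, shares 37.7% of its exon bases with an antisense lncRNA. Whether strand was used in counting is not given in the sources used here, so reads of a gene and its antisense partner cannot be told apart. EBP shares 36.4% and ACAT2, an acetyl-CoA thiolase, 22.2%, and SCD, FASN and ACACA share none.

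The comparison of rapamycin with DMSO asks which mRNAs change in translation, in footprints or in abundance after brief inhibition. Of the 33 genes, 31 had at least 10 RF and 10 RNA counts summed over libraries and were tested among 13329 genes. ELOVL6, with 8 RF counts, and STARD4, with 1, were not tested. In edgeR's quasi-likelihood test of TE, 0 of the 31 passed an adjusted p of 0.05, as did 0.0% of all genes, and RF alone and total RNA alone likewise gave 0 of 31 and 0.0% of all genes. In bulk libraries, fewer cells that express a gene and less RNA per cell cannot be told apart. DESeq2's Wald test, a second tool, called 2 of the 31 in TE (SREBF2 and SCAP, 6.45%, against 9.62% of all genes), 0 in RF (0.0375% of all genes) and 1 in RNA (SCD, 0.218% of all genes). It put 7 of the 31 (22.6%) under an unadjusted p of 0.05 in TE, beside 22.1% of all genes. In edgeR, at an unadjusted p under 0.05, 2 of 31 had lower TE (SREBF2 and MVK, 6.45%, against 6.42% of all genes) and 0 had higher TE (6.17% of all genes). In RF alone 0 passed in either direction, where 1.92% of all genes were lower and 1.76% higher. In RNA alone HMGCS1 was lower (2.51% of all genes) and SCD, the stearoyl-CoA desaturase, was higher (3.32% of all genes). The share of lower TE calls among the 31 was thus near the background. For higher calls, 31 genes are too few to tell 0 from the background of 6.17%. SCAP, called in TE by DESeq2 alone, had a higher TE in rapamycin (1.22 in edgeR).

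The median log2 TE change of the 31 was -0.25, with 18 values below 0 and 13 above, beside -0.06 over all 13329 genes, of which 7161 were below 0. Without DMSO culture 1 the median of the set was -0.03, and limma voom gave 0.01. The RF median was -0.24 (0.02 over all genes) and the RNA median 0.04 (0.01 over all genes). Of the RNA values, 22 of the 31 were above 0, beside 7085 of all 13329 genes. By role, the median TE value was -0.58 for the 5 SREBP control genes, 0.11 for the 7 early mevalonate genes and -0.39 for the 11 squalene and sterol genes. The whole set took 0.121% ± 0.0168 of RF counts in DMSO and 0.111% ± 0.0031 in rapamycin (SD, n = 3), and 0.164% ± 0.00078 and 0.171% ± 0.00537 of RNA counts. In RF these ranges overlapped. In RNA every rapamycin library (0.167%, 0.177% and 0.168%) was above every DMSO library (0.164%, 0.165% and 0.163%), with rapamycin library 2 highest. These are shares of raw counts without TMM scaling, and no such share was computed for genes outside the pathway.

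**Figure D2:**
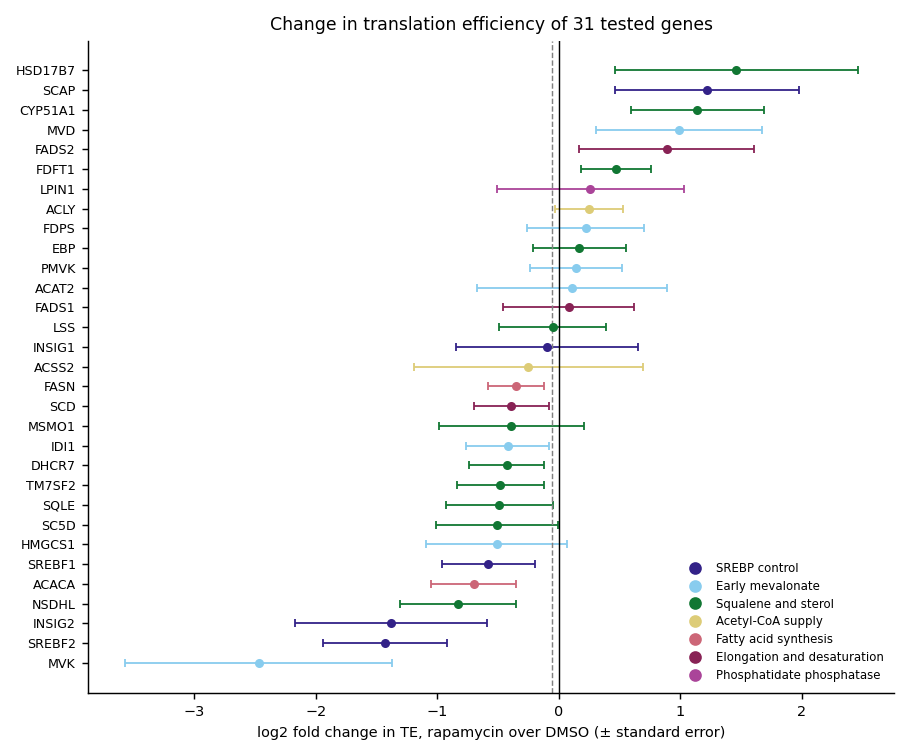
Log2 fold change in TE, rapamycin over DMSO, for the 31 tested genes in order of value (points, coloured by role; bars are ± 1 standard error from the edgeR model); the solid line marks no change and the dashed line the median of all genes (-0.06). MVK (-2.47) and SREBF2 (-1.43) lie lowest and HSD17B7 (1.46) highest, and most bars cross or approach the line of no change. MVK rests on 35 RF counts in all and HSD17B7 on 11.

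SREBF2 (GRCh37 chr22:42229109-42303310, + strand) had the smallest TE p of the set. Its RF counts were 3, 38 and 38 in DMSO cultures 1 to 3 and 10, 16 and 3 in rapamycin. As RF CPM these were 9.23, 47.8 and 25.8 in DMSO and 8.29, 19.4 and 9.98 in rapamycin, so DMSO cultures 2 and 3 stood above all rapamycin cultures while DMSO culture 1 lay among them. Its RNA was 23.9, 24.2 and 22.2 CPM in DMSO and 24.4, 29.1 and 24.2 in rapamycin, where each rapamycin library lay above each DMSO library, the nearest pair by less than the printed digits, and rapamycin library 2 was highest. The fitted log2 TE change was -1.43 (SE 0.51, unadjusted p = 0.0141, adjusted p = 0.284), with an RF change of -1.16 (SE 0.75, adjusted p = 1.0) and an RNA change of 0.14 (SE 0.073, adjusted p = 0.766). The RNA change was 0.05 without rapamycin culture 2, and 0.03 from FPKM. Leaving out DMSO culture 2 took the TE value to -1.02 (adjusted p = 0.412), leaving out rapamycin culture 1 to -1.04 (adjusted p = 0.618) and leaving out rapamycin culture 3 to -1.36 (adjusted p = 0.595), each with an unadjusted p above 0.05 in edgeR. Over cultures, the exact permutation test of log2 TE gave p = 0.3, where 3 against 3 cultures cannot go below 0.1. With a term for each culture in the edgeR fit, the unadjusted TE p of SREBF2 was 0.18.

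MVK, mevalonate kinase (GRCh37 chr12:110011060-110035930, + strand), had RF counts of 9, 0 and 21 in DMSO and 0, 3 and 2 in rapamycin. In RF CPM these were 27.7, 0 and 14.3 against 0, 3.63 and 6.65, and a count of 0 in DMSO culture 2 allows up to 3.77 CPM. The groups overlapped because DMSO culture 2 was at 0. RNA was even, at 15.2, 15 and 15.2 CPM in DMSO and 14.7, 16.3 and 15.9 in rapamycin. The TE change was -2.47 (SE 1.1, unadjusted p = 0.0372, adjusted p = 0.36). It ranged from -3.13 to -1.46 when 1 culture at a time was left out, with p above 0.05 without DMSO culture 1 (0.101), DMSO culture 3 (0.207), rapamycin culture 1 (0.221) or rapamycin culture 2 (0.0651). A term for each culture in the edgeR fit gave an unadjusted TE p of 0.227.

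The other SREBP control genes did not pass the unadjusted threshold in edgeR. SREBF1 had RF CPM of 73.8, 176 and 115 in DMSO and 67.2, 106 and 93.1 in rapamycin, overlapping, with a TE change of -0.58 (SE 0.38, adjusted p = 0.558). SCAP read 21.5, 0 and 6.79 RF CPM in DMSO and 10.8, 23 and 16.6 in rapamycin. Its TE change was 1.22 (SE 0.76, adjusted p = 0.535 in edgeR, called in DESeq2's Wald test), and DMSO culture 2 held no SCAP footprint. INSIG1 had 9.23, 0 and 8.83 RF CPM against 8.29, 3.63 and 3.33, with a TE change of -0.10 (SE 0.75, adjusted p = 0.975). INSIG2, with 40 RF counts in all, had a TE change of -1.38 (SE 0.79, adjusted p = 0.494).

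In total RNA, all 5 SREBP control genes had log2 changes above 0, from 0.04 to 0.14, none past the threshold. Over all 13329 genes, 7085 were above 0. SREBF1 RNA was 53.9, 53.1 and 54.4 CPM in DMSO and 53.2, 61.9 and 54.6 in rapamycin, with rapamycin library 2 apart from the rest. SCAP RNA overlapped, at 63.6, 70.1 and 64.7 CPM against 69.1, 71.1 and 64.6. INSIG1, one of the proteins that hold SCAP back, is itself a known SREBP target. INSIG1 RNA was 19.9, 19.8 and 18.9 CPM in DMSO and 20.6, 20.2 and 20.1 in rapamycin, so each rapamycin library was above each DMSO library, a log2 change of 0.06 (SE 0.044, adjusted p = 0.766). INSIG2 RNA was 7.34, 7.88 and 7.51 CPM against 8.14, 8.63 and 7.93, again without overlap. Together with SREBF2 and SCD, 4 of 31 genes had every rapamycin RNA library above every DMSO library (12.9%, against 8.22% of all genes), and HMGCS1 had every one below (6.61% of all genes). In RF 0 genes were without overlap in either direction, against 4.21% of all genes below and 5.24% above.

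**Figure D3:**
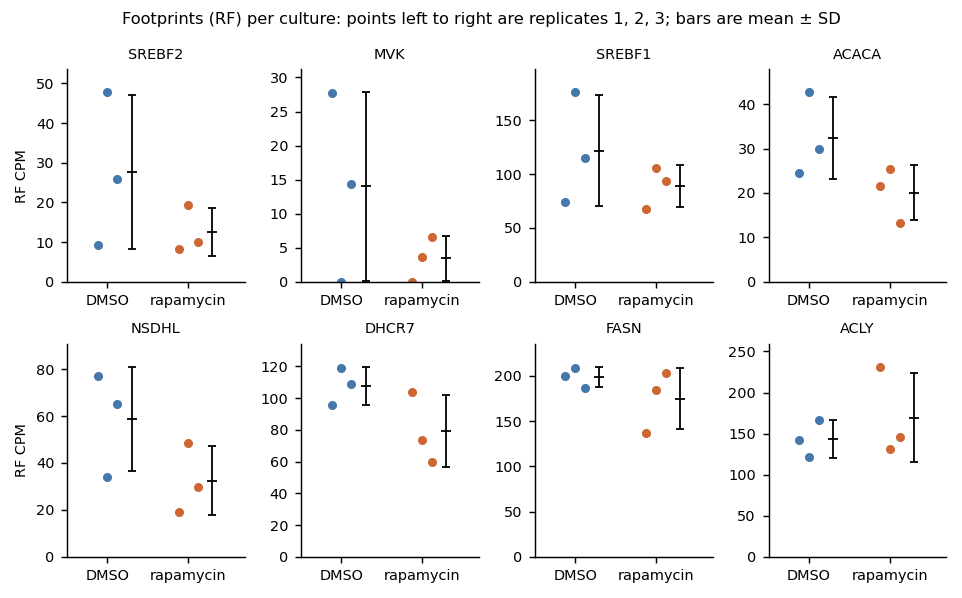
RF CPM (vertical axis from 0) in each culture for 8 genes; points from left to right in a treatment are cultures 1, 2 and 3, blue for DMSO and orange for rapamycin, and the black bars are the mean ± SD. In all 8 panels the ranges of the treatments overlap, and for SREBF2 the DMSO values run from 9.23 to 47.8.

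Among the early mevalonate genes, HMGCS1 (GRCh37 chr5:43287572-43313614, - strand) had RNA that was lower by a small amount, at 47, 47 and 47.2 CPM in DMSO and 45.4, 42 and 44.3 in rapamycin, with no overlap. The log2 change was -0.10 (SE 0.039, unadjusted p = 0.0289, adjusted p = 0.766). From FPKM it was -0.04 (limma, adjusted p = 0.957), and leaving out any single culture other than rapamycin culture 1 gave an unadjusted p from 0.0533 to 0.0822 in edgeR. Its RF CPM were 6.15, 45.2 and 54.3 in DMSO and 21.6, 20.6 and 49.9 in rapamycin, a TE change of -0.51 (SE 0.58, adjusted p = 0.762). ACAT2, PMVK, MVD and FDPS had TE values of 0.11, 0.14, 0.99 and 0.22, and the isomerase IDI1 of -0.42. None had an unadjusted p under 0.05.

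The squalene and sterol genes spread from -0.83 to 1.46 in log2 TE. SQLE, the oxygenase that commits squalene to sterols, had RF CPM of 30.8, 56.6 and 35.3 in DMSO and 41.5, 15.7 and 33.3 in rapamycin. Its RNA was 71.4, 71.4 and 72.7 CPM against 75, 70.6 and 74, and its TE change was -0.49 (SE 0.44, adjusted p = 0.686). NSDHL, a sterol decarboxylase, had the smallest RF p of the set (0.123), with RF CPM of 76.9, 33.9 and 65.2 in DMSO and 19.1, 48.4 and 29.9 in rapamycin. DHCR7, the reductase of the last step, had 95.4, 119 and 109 against 104, 73.8 and 59.9. CYP51A1 and HSD17B7 lay at the top with TE values of 1.14 (SE 0.55, adjusted p = 0.417) and 1.46 (SE 1.0, adjusted p = 0.577), on 49 and 11 RF counts. FDFT1, LSS, TM7SF2, MSMO1, EBP and SC5D lay between -0.51 and 0.47.

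For fatty acid synthesis, ACACA, the acetyl-CoA carboxylase that makes malonyl-CoA, was the only gene of the 31 whose TE was lower in every rapamycin culture than in every DMSO culture (1 of 31, against 6.19% of all genes), and 0 were higher in every culture (4.8% of all genes). Its RF CPM were 24.6, 42.7 and 29.9 in DMSO and 21.6, 25.4 and 13.3 in rapamycin, where culture 2 of rapamycin overlapped culture 1 of DMSO. Its RNA was 123, 119 and 116 CPM against 121, 140 and 116. The log2 TE of single cultures was -2.19, -1.40 and -1.84 in DMSO and -2.33, -2.33 and -2.88 in rapamycin. The fitted change was -0.70 (SE 0.35, unadjusted p = 0.066, adjusted p = 0.43), and the exact permutation test over cultures gave p = 0.1, the smallest it can give here.

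FASN had the most RF counts of the set. Its RF CPM were 200, 209 and 187 in DMSO and 137, 184 and 203 in rapamycin, and its RNA 250, 237 and 238 against 243, 310 and 247, with rapamycin RNA library 2 apart from the rest. The TE change was -0.35 (SE 0.23, adjusted p = 0.559). ACLY, second in RF counts, had 142, 121 and 167 RF CPM in DMSO and 231, 131 and 146 in rapamycin, a TE change of 0.25 (SE 0.28, adjusted p = 0.751), and its RNA stayed at 231 to 246 CPM in all 6 libraries. ACSS2, which makes acetyl-CoA from acetate, had 18 RF counts in all and a TE value of -0.25 (SE 0.94).

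SCD (GRCh37 chr10:102106990-102124583, + strand) had the smallest RNA p of the set. Its RNA read 77.5, 81.6 and 79.1 CPM in DMSO and 89.8, 92 and 87.5 in rapamycin, so every rapamycin library was above every DMSO library, by 13.1% in the fit. The log2 change was 0.18 (SE 0.036, unadjusted p = 0.00061, adjusted p = 0.766 over 13329 genes, edgeR), between 0.16 and 0.20 without any single culture, and DESeq2's Wald test gave an adjusted p of 0.018. From FPKM the change was 0.16 (limma, adjusted p = 0.927), and without the RNA of DMSO cultures 1 and 2 it was 0.18 (edgeR, adjusted p = 0.999). Its RF overlapped between treatments, at 80, 45.2 and 57.1 CPM in DMSO and 50.6, 50.8 and 49.9 in rapamycin, and its TE change was -0.39 (SE 0.31, adjusted p = 0.644). The desaturases FADS1 and FADS2 had RNA changes of 0.02 and 0.07 and TE changes of 0.08 and 0.89, with SE of 0.54 and 0.72. LPIN1, a phosphatidate phosphatase that also acts on SREBP in the nucleus, had RF CPM of 3.08, 1.26 and 16.3 in DMSO and 4.97, 19.4 and 9.98 in rapamycin, and RNA of 53.5, 52.4 and 51.7 against 50, 54.3 and 52.5. Both overlapped, and its TE change was 0.26 (SE 0.77, adjusted p = 0.919).

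**Figure D4:**
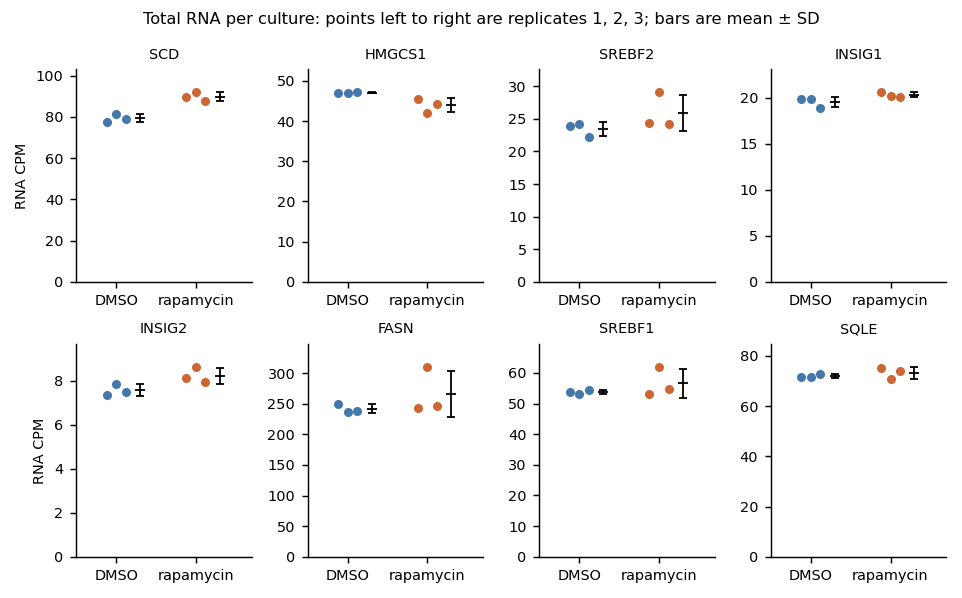
Total RNA CPM (vertical axis from 0) in each culture for 8 genes, with points and mean ± SD bars laid out as in the RF plot. SCD (77.5 to 81.6 in DMSO, 87.5 to 92 in rapamycin) and HMGCS1 (47 to 47.2 against 42 to 45.4) do not overlap between treatments, and FASN has 1 high rapamycin library at 310.

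Isoform FPKM showed which transcripts supplied this RNA. SREBF1 was split over 23 isoforms, and the leading SREBF1-201 held 20.5% ± 1.29 in DMSO and 21.7% ± 2.91 in rapamycin. SREBF2-201, the isoform with the TOP tract, held 60.3% ± 3.52 and 64.8% ± 6.77, followed by a retained-intron transcript at 28.8% ± 8.79 and 23.6% ± 3.9. Within HMGCS1, the second isoform HMGCS1-202, which has the same coding length as HMGCS1-201, held 9.06%, 20% and 24.1% in DMSO and 26.2%, 30.9% and 25.8% in rapamycin. LPIN1-201 held 56.7%, 60.0% and 58.0% against 65.2%, 64.9% and 62.7%. These and STARD4-201 and HSD17B7-202 were the 4 of 92 leading isoforms (up to 3 a gene) whose rapamycin shares were all above DMSO (4.35%, against 5.53% over all genes), and MSMO1-202 was the only one below (1.09%, against 5.34%). INSIG1-201 (67.0% and 67.7%) and ACLY-201 (59.4% and 59.6%) had near equal means, with overlapping libraries. The isoforms of ACACA carry other identifiers in the annotation used and were not matched. These shares are estimates from short reads and were not tested.

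Without rapamycin, footprints per unit of RNA varied widely within the pathway. After scaling RF and RNA separately, 2 of 31 genes lay above the average of the scaled libraries at an adjusted p of 0.05 in DMSO (DHCR7 and SREBF1, against 21.3% of all genes) and 12 lay below (against 42.7% of all genes). DHCR7 had a log2 RF over RNA of 1.30 (SE 0.22, adjusted p = 0.00019) and SREBF1 of 1.21 (SE 0.26, adjusted p = 0.00126), at percentiles 79.8 and 79.3 of all genes. SCAP, with 0 RF counts in DMSO culture 2, was lowest at -3.28 (SE 0.54, percentile 3.02), then HSD17B7 at -2.54, LPIN1 at -2.50 and ACSS2 at -2.13. The last 3 rest on few footprints. DMSO RF counts were 1, 0 and 2 for HSD17B7, 1, 1 and 24 for LPIN1 and 3, 0 and 7 for ACSS2. In the per-culture ratio with a prior count of 2, the DMSO mean was -0.87 for HSD17B7, above the -1.81 of ACACA. The low rank of HSD17B7 thus held only in the fit. The log2 ratio of SCAP in single DMSO cultures had an SD of 1.73 (n = 3). FADS2, ACACA, FADS1, INSIG1, MVD, LSS, SQLE and ACLY made up the rest of the 12. The test compares each gene with the average of the scaled libraries, and the median gene itself lay below that average. SQLE and ACLY, at percentiles 44.3 and 46.4 of all genes, were thus near the median gene. SREBF1 and its escort SCAP, with RNA of 53.8 and 66.2 CPM, thus had RF of 122 ± 51.4 and 9.44 ± 11 CPM. The median of the 31 was -0.32 and that of all genes -0.58.

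RNA is counted over whole exons while ribosomes cover the coding sequence, so long untranslated regions lower this ratio by its construction. Scaling all 12 libraries together, which moves the all-gene median to -0.01, gave 5 above and 7 below. Per kilobase of coding sequence of the leading isoform, DHCR7 was again highest at 75.8 ± 8.47 RF CPM in DMSO, followed by SCD (56.4 ± 16.4), NSDHL (52.4 ± 19.9) and MSMO1 (43.5 ± 45.9). EBP, ACACA and ELOVL6 had no coding length for the leading isoform. FASN, whose coding sequence is 7533 bases, was at 26.3 ± 1.46, SREBF1 at 35.3 ± 14.9, SREBF2 at 8.06 ± 5.65, SCAP at 2.46 ± 2.87 and LPIN1 at 2.58 ± 3.08.

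**Figure D5:**
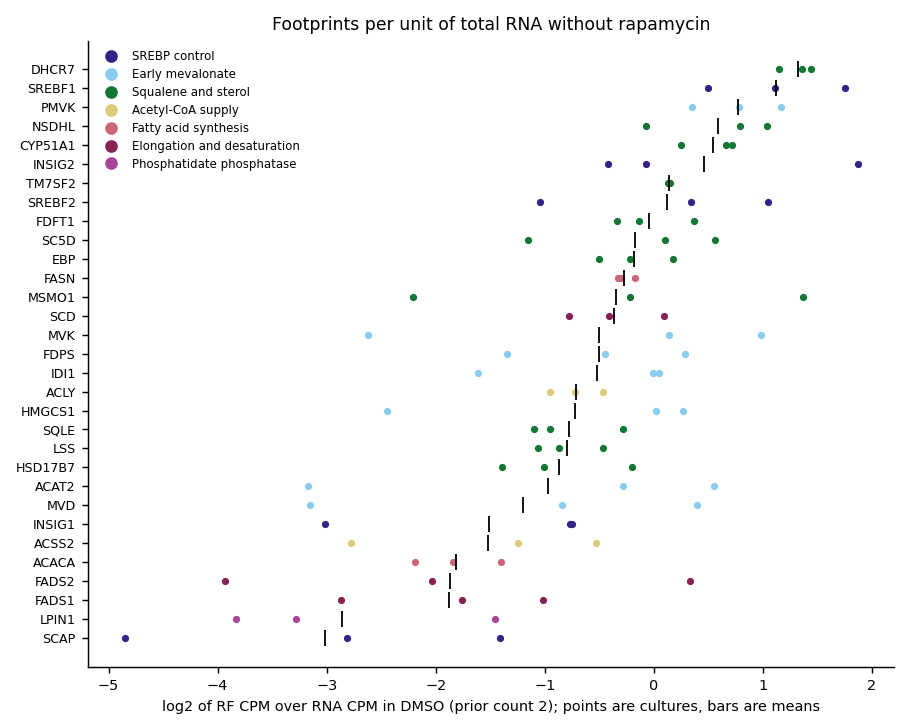
Log2 of RF CPM over RNA CPM in DMSO (prior count of 2) for the 31 tested genes, with 1 coloured point per culture and a black bar at the mean, ordered by mean. DHCR7 and SREBF1 are at the top and SCAP at the bottom, and cultures of DHCR7 and FASN lie close together whereas those of SCAP, FADS2 and MVK spread over several log2 units.

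A wider list of 79 related genes, among them SREBP processing factors, isoprenoid branch enzymes, sterol transporters and enzymes of acyl-CoA use, was set beside the pathway, and 71 were tested. For TE, 0 passed an adjusted p of 0.05 in edgeR and 10 in DESeq2's Wald test (14.1%, against 9.62% of all genes), while in edgeR at the unadjusted threshold of 0.05 the list held 8 lower genes and 10 higher ones (11.3% and 14.1%, against 6.42% and 6.17% of all genes). The smallest p among the lower genes was that of DOLK, which phosphorylates dolichol, with RF CPM of 15.4, 49 and 78.8 in DMSO and 24.9, 21.8 and 16.6 in rapamycin and a TE change of -1.38 (adjusted p = 0.231). RNF139, a ligase of the endoplasmic reticulum, was at -2.85 (adjusted p = 0.276) on 75 RF counts, of which 62 came from DMSO culture 3. HACD2, a dehydratase of fatty acid elongation, was at -1.09 (adjusted p = 0.285). Among the higher genes, ACACB, the carboxylase of the mitochondrial membrane, went from RF counts of 0, 1 and 1 to 23, 6 and 0 (TE 3.87, adjusted p = 0.231). It reached the minimum of 10 RF counts only through the rapamycin libraries, mostly culture 1, so its place among the 10 higher genes is no support for a change. CBR4 was at 2.48 and HACD1, a paralog of HACD2, at 2.25, both with an adjusted p of 0.231. In RNA, ABCA1, which exports cholesterol, was higher at an unadjusted p of 0.0415 in edgeR (adjusted p = 0.766), and 0 were lower. No member of the list passed an adjusted p in RF or RNA.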

How the data were processed

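RF and total RNA of PANC-1 cells were measured in 12 libraries. The authors deposited raw counts: RF reads were quality filtered, linker trimmed and cleared of ribosomal RNA, RF and RNA reads were aligned to GRCh37 with HISAT2, and unique reads on exons of protein-coding genes were counted with featureCounts. The authors also deposited FPKM of genes and isoforms, made with cuffnorm of Cufflinks 2.2.1 from the submitters' processing notes. Their RF over RNA ratios, fold changes and p-values made with RiboDiff were not used. RiboDiff was not run, and its interaction of library type and treatment was tested instead with edgeR 4.0.16 (quasi-likelihood, robust, R 4.3.3) on genes with at least 10 RF and 10 RNA counts summed, with TMM scaling within each library type and Benjamini-Hochberg adjustment over 13329 genes. RF and RNA were also tested alone. limma 3.58.1, DESeq2 1.42.0 and FPKM with a pseudocount of 1 were alternatives. Methods were tested on simulated data. Only the edgeR tests were run there. The TE and RF tests missed most 4-fold changes, and the TE test also called unchanged genes. The RNA test found most 1.2-fold changes but missed some, and smaller ones were not simulated. An absence of TE, RF or RNA calls is therefore not evidence of no change.

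Members and lists were chosen with earlier results of these data known. Values in every library were given for members with an unadjusted p under 0.05, 11 hub genes and the 3 members with most RF counts. INSIG2, NSDHL, DHCR7 and others named beyond this rule were named after their values were seen, as were the comparisons of exon overlap. Per-culture TE used log2 CPM with a prior count of 2. Genes were matched to a GRCh37 annotation of a version newer than the one used by the authors (19545 of 20212 by identifier, ACACA by symbol). RF libraries held 278835 to 1574723 counts, so the upper limit for a gene at 0 (3 counts) is 2.04 to 9.98 RF CPM, which covers counting error only. One result of the wider list is not reported here.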

Additional observations from a re-analysis of the deposited data

How the results depend on the processing

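Leaving out single cultures moved TE calls between 0 and 396 genes, RF calls between 0 and 5 and RNA calls between 0 and 687. The high TE and RNA counts both came without DMSO culture 3. Members at an unadjusted p under 0.05 ranged from 1 to 4 in TE, 0 to 3 in RF (3 without DMSO culture 2) and 1 to 4 in RNA. The members' median TE change ranged from -0.36 to -0.03, and members above and below the average in DMSO RF over RNA from 2 to 4 and 8 to 11. In these fits the treatment left with 2 cultures is assumed to vary like the other. DESeq2's Wald test called 1281 genes in TE, 5 in RF and 29 in RNA, and put 7 members under an unadjusted p of 0.05 in TE (22.1% of all genes). SREBF2 (-1.41, adjusted p = 0.0323) and SCD RNA (0.18, adjusted p = 0.018) passed only with this tool among those run. limma voom put 0 members under that p and turned the median TE change to 0.01. A block per culture gave 0 such members. With no minimum count, 20 genes were called in RF. From FPKM, each pseudocount and filter gave 1 gene called in RNA and 1 member under the unadjusted p, as did leaving out the RNA of DMSO cultures 1 and 2 for members (1), an alternative chosen after seeing the data. Scaling all libraries together, also chosen after seeing the data for this ratio, gave 5 members above and 7 below in DMSO. The causes of these shifts were not tested.

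No pairing of the cultures by replicate number was seen. Same-numbered libraries had correlations of deviations from -0.22 to -0.06, and no library correlated best with its own number. Deviations from a mean of only 3 libraries cannot exclude a pairing. With a replicate block, 1 gene was called in TE and 6 in RF, and 1 member had an unadjusted p under 0.05 in TE. The other summary counts and medians stayed within 1.5 times their value or on their side of the threshold. Of the TE and RNA changes of SREBF2, MVK, SCD and HMGCS1, none changed sign. Unadjusted p-values moved more: MVK TE rose to 0.104 with DESeq2 and 0.109 with the block, and SREBF2 RNA fell to 0.042 with the block. RF depth limits most members: in rapamycin culture 3 the median count over the 33 genes was 4.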
